A study of Mus musculus with 6 samples.

Results

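Immediate early genes are the genes a cell switches on first when a growth factor, stress or injury signal arrives, before any new protein has to be made. ERK and the stress kinases JNK and p38 act on factors already bound at these genes, such as SRF with its ETS partners, CREB and ATF2, and the transcripts that follow are short lived. Many of them encode transcription factors, among them the Fos and Jun proteins, which pair through leucine zippers into the factor AP-1. In stomach epithelium they are known as readouts of growth factor and wound signalling, and they are also known to respond to the dissection and handling of a tissue.

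The 10 genes followed here were given by name: Egr1, Fos, Fosb, Fosl1, Jun, Junb, Myc, Ier3, Atf3 and Phlda1. Each had a single row among the 34866 rows of the count table, and all 10 were among the 14017 genes with enough counts to be tested. The libraries are bulk RNA-seq of mouse mucosa from the antrum, which is the outlet region of the stomach. Wild-type mice (Muc6 +/+) were compared with mice whose gene for the gland mucin Muc6 was disrupted on both alleles (Muc6 -/-), with 3 libraries each, called wild type 1 to 3 and knockout 1 to 3. The labels give neither age, strain nor sex, nor how the allele was made or whether a library is 1 animal, and they name no treatment, so p-values measure the spread between these libraries, which may be technical. The study was set up to ask how Muc6 relates to gastric carcinogenesis.

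Depth was even, at 19839799 to 21354029 estimated counts per library. Levels below are CPM, counts per 1e6 of a library size scaled for composition, and a change is the log2 ratio of knockout to wild type, given with its standard error (SE). Muc6 was at 396 to 510 CPM in the wild-type libraries and at 0 to 0.0425 CPM in the knockout libraries. The Y-linked gene Ddx3y was at 0.058 to 0.326 CPM in wild type and 39.3 to 41.1 CPM in the knockout, so sex and genotype cannot be told apart in any difference given here. Of the genes tested, 38.4% changed at an adjusted p under 0.05 (edgeR), 19.3% higher and 19.2% lower in the knockout, and each count of members is to be read against that background. Of the 12 markers of antral epithelium tested, all were detected, with 4 higher and 6 lower in the knockout. Their summed level was 175114 to 204231 CPM in wild type and 61291 to 75284 CPM in the knockout. Detection therefore does not show that the antral epithelium was unchanged. In bulk tissue, fewer cells of a type and less RNA per cell cannot be told apart.

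Promoter sequence is shown because AP-1 genes are read out through short binding sites near their starts. Promoter windows of RefSeq (GRCm38.p6) were used for 6 of the members: Fos, Fosb, Jun, Junb, Ier3 and Atf3. No window was searched for Egr1, Fosl1, Myc or Phlda1, so the sites near their starts are not described here. The lines below give the 150 bases before the start that RefSeq annotates for 4 of them (for Atf3, Fosb and Ier3 this start lies inside the gene span given below, which is that of GENCODE), in the direction of transcription, with every TGACG (the left arm of a CRE, the CREB and ATF site) or its extension TGACGT on either strand in capitals.
Fos, plus strand, chr12:85473740-85473889: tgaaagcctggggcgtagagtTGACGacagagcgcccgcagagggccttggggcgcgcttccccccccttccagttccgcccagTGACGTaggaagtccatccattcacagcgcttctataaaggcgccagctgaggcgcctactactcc
Atf3, minus strand, chr1:191183334-191183483: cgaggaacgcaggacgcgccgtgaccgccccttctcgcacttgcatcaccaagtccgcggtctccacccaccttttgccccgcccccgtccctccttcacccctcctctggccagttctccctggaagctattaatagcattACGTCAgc
Fosb, minus strand, chr7:19310046-19310195: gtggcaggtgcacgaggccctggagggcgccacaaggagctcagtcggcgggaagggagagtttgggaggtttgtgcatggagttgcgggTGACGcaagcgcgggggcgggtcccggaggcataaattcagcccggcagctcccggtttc
Ier3, plus strand, chr17:35821563-35821712: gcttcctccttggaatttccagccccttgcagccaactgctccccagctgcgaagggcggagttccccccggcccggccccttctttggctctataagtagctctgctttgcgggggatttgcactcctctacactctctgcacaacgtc

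TGACGT stood in the windows of Fos, 66 to 61 bases before the start, and of Atf3, 8 to 3 bases before it and on the opposite strand. It was in 7.51% of all 32851 promoter windows of 300 bases, which ran from 250 bases before the start to 50 after it. Sites further upstream were not searched. The shorter TGACG was in 4 of the 6 windows, those of Fos, Fosb, Junb and Atf3, and in 20.8% of all windows. None of the 6 windows held the CArG box of SRF (in 1.63% of all), the full CRE TGACGTCA (1.79%), the AP-1 sites TGAGTCA or TGACTCA, which are the same site read on opposite strands (5.2%), the E-box CACGTG of Myc (7.15%) or the Egr1 site GCGTGGGCG (0.612%). TGACG and TGACGT, which overlap each other and the full CRE, were added to the search after the longer strings had given no match, and a match is a description and not evidence of binding.

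Of the 10 immediate early genes, Phlda1, Ier3 and Fosb rose in the knockout, Atf3 fell, and the other 6 did not pass. That is 4 of 10 called, against 38.4% of all genes tested, a share near the background. The median change of the 10 was 0.79 on the log2 scale, against 0.02 over all genes tested, and it was 0.45 without knockout 2, 0.49 without wild type 3 and 1.32 with both libraries numbered 1 left out. For 6 members the knockout and wild-type libraries were fully separated, as for 54.8% of all genes. In 5 of them every knockout library was above every wild-type library, as in 28.2% of all genes, and in 1 below, as in 26.6%.

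**Figure D1:**
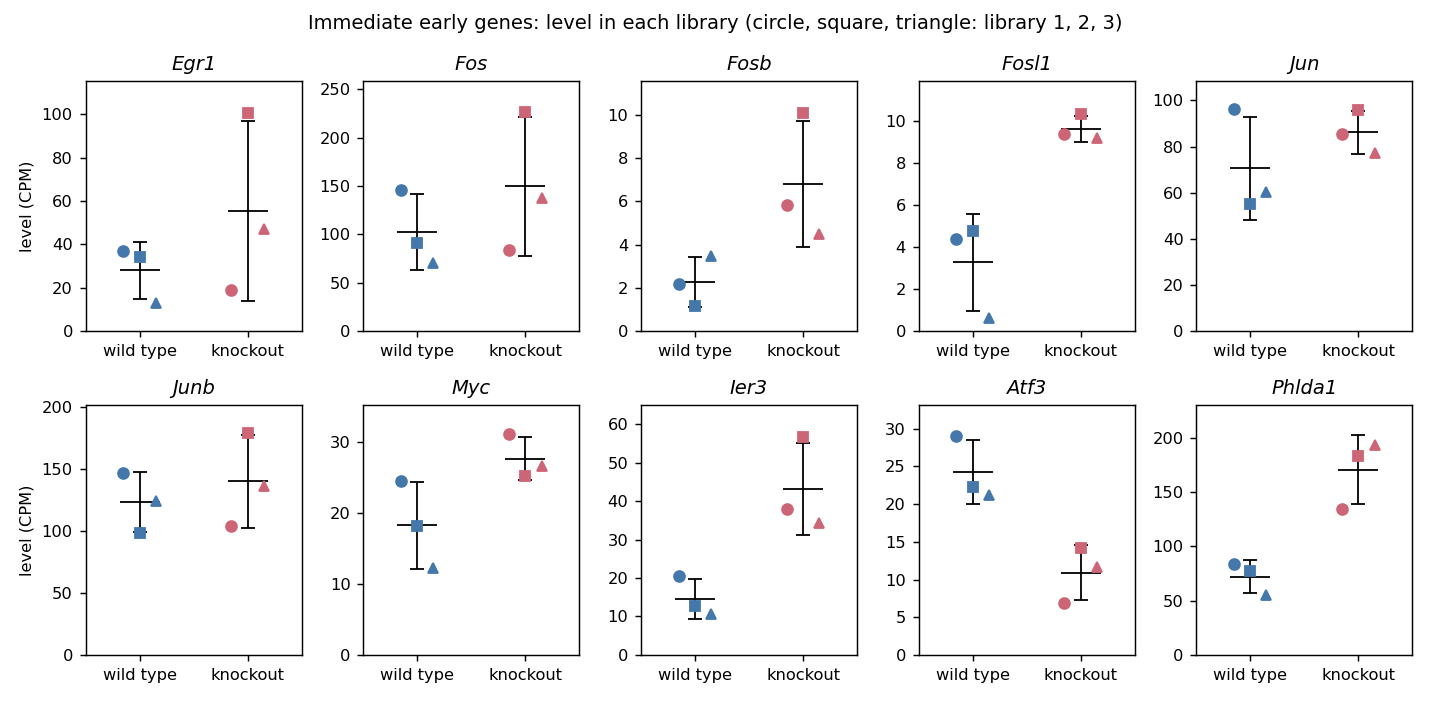
Level of each of the 10 genes in CPM (vertical axes, each from 0) in the 3 wild-type (blue) and 3 knockout (red) libraries, with circles, squares and triangles for libraries 1, 2 and 3 and black marks for the mean and SD of each genotype. Phlda1, Ier3, Fosb, Fosl1 and Myc have all knockout libraries above all wild-type libraries and Atf3 has all below, while Egr1, Fos, Jun and Junb overlap, with the square of knockout 2 at the top of the knockout group.

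Of the Fos family genes among the members, Fos itself was the most abundant. Fosl2, a Fos family gene described below, was higher in CPM than Fos in every wild-type library. Per length of annotated exon, the mean level of Fosl2 was below that of Fos in both genotypes. Fos (ENSMUSG00000021250.13, chr12:85473890-85477273, plus strand) encodes the founding AP-1 subunit, which cannot pair with itself and needs a Jun partner. Wild type 1, 2 and 3 held 146, 90.8 and 70.1 CPM, and knockout 1, 2 and 3 held 84.3, 227 and 137 CPM. The groups overlapped widely, since wild type 1 lay above 2 of the knockout libraries. The log2 change of 0.55 (SE 0.43) did not pass in edgeR (adjusted p = 0.362). Without knockout 2 it was 0.12 (adjusted p = 0.835, edgeR) and without wild type 3 it was 0.32 (0.636), while without wild type 1 it was 0.88 (0.2) and without knockout 1 it was 0.83 (0.138). Among the alternatives run Fos passed only with both libraries numbered 1 left out, at 1.16 (adjusted p = 0.0386, edgeR).

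Fosb (ENSMUSG00000003545.3, chr7:19302696-19310051, minus strand) encodes a further Fos protein, known for its transient induction beside Fos. Its level was 2.17, 1.18 and 3.48 CPM in the wild-type libraries and 5.82, 10.1 and 4.49 CPM in the knockout libraries. All knockout libraries lay above all wild-type libraries, knockout 3 by the smallest margin. Fosb rose by 1.57 on the log2 scale (SE 0.47, edgeR adjusted p = 0.034), a 2.98-fold difference on 21 to 60 counts per wild-type library. This call ended without wild type 1 (adjusted p = 0.0723), wild type 2 (0.0949), knockout 1 (0.0509) or knockout 2 (0.136), and with both libraries numbered 1 left out (0.0818), all in edgeR and all with the rise between 1.18 and 1.68.

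Fosl1 (ENSMUSG00000024912.5, chr19:5447547-5455946, plus strand) encodes Fra-1, a Fos protein that lacks the transactivation domain of Fos and is known from invasive and squamous epithelia. It was at 4.4, 4.78 and 0.638 CPM in the wild-type libraries, against 9.39, 10.3 and 9.2 CPM in the knockout libraries. The knockout values lay within a 1.12-fold range, whereas the wild-type values spanned 7.49-fold, wild type 3 holding 11 counts. The groups did not overlap, but the change of 1.56 (SE 0.63) did not pass in edgeR (adjusted p = 0.0917). It passed without wild type 3 in edgeR (1.05, adjusted p = 0.0181), and with all libraries in DESeq2 (1.54, 0.0245) and limma-voom (1.97, 0.0348).

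Neither Jun gene passed the test. Jun (ENSMUSG00000052684.4, chr4:95049034-95052222, minus strand), the partner of Fos in AP-1 and the substrate of JNK, was at 96.2, 55.2 and 60.3 CPM in the wild-type libraries and 85.4, 96 and 77.2 CPM in the knockout. Wild type 1 was as high as the highest knockout library and wild type 2 and 3 were below all of them. The change was 0.29 (SE 0.22, edgeR adjusted p = 0.324). Without wild type 1 it was 0.57 and passed (adjusted p = 0.0113, edgeR), as it did with both libraries numbered 1 left out (0.56, 0.00828), whereas without wild type 2 it was 0.15 (0.661) and without wild type 3 it was 0.18 (0.607).

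Junb (ENSMUSG00000052837.6, chr8:84974484-84978718, minus strand), a weaker activator that can hold back Jun, was at 147, 98.1 and 124 CPM in the wild-type libraries and 104, 179 and 136 CPM in the knockout. The groups overlapped, with knockout 1 below 2 of the wild-type libraries and knockout 2 above all of them. The change of 0.18 (SE 0.23) did not pass in edgeR (adjusted p = 0.551), and without knockout 2 it was -0.03 (0.923).

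Egr1 (ENSMUSG00000038418.7, chr18:34859823-34864984, plus strand), a zinc finger factor induced by ERK through SRF sites, varied most among the knockout libraries. It was at 37.2, 34.1 and 13.1 CPM in the wild-type libraries, against 18.9, 100.4 and 47.1 CPM in the knockout libraries, a 5.32-fold range within that genotype. Knockout 1 lay below wild type 1 and 2, and knockout 2 above every other library. The change was 0.98 (SE 0.71), and edgeR gave an adjusted p of 0.326. Egr1 passed under none of the 16 alternatives run, in which its change ranged from 0.23 to 1.62 and its adjusted p from 0.124 to 0.802.

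Myc (ENSMUSG00000022346.15, chr15:61985391-61990374, plus strand), the growth and ribosome-synthesis factor that forms a dimer with Max, was at 24.5, 18.2 and 12.2 CPM in the wild-type libraries and 31.1, 25.3 and 26.6 CPM in the knockout. Every knockout library was above every wild-type library, knockout 2 just above wild type 1. The change of 0.60 (SE 0.24) did not pass in edgeR (adjusted p = 0.0879). It passed without wild type 1 (0.85, adjusted p = 0.0175, edgeR), with both libraries numbered 1 left out (0.75, 0.0143) and with library sizes taken without the 20 most abundant genes (0.81, 0.028), and without wild type 3 it was 0.36 (0.171).

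Ier3 and Phlda1, which encode no DNA-binding factor, held the 2 rises that passed in every alternative run. Ier3 (ENSMUSG00000003541.6, chr17:35821684-35822923, plus strand; IEX-1) encodes a small protein that prolongs ERK activity and modulates cell death. It was at 20.5, 12.7 and 10.6 CPM in the wild-type libraries, against 38.1, 56.8 and 34.4 CPM in the knockout libraries. The lowest knockout library stood well above the highest wild-type library. Ier3 rose by 1.56 (SE 0.30), 2.95-fold, with an edgeR adjusted p of 0.00744. The rise was between 1.32 and 1.98 in the 16 alternatives and passed in all of them, with adjusted p values of 2.18e-06 to 0.0428 (edgeR, DESeq2 and limma-voom).

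Phlda1 (ENSMUSG00000020205.8, chr10:111506286-111508645, plus strand) encodes a pleckstrin-homology-like protein induced by ERK that is also known as an epithelial stem cell marker. It was at 84, 77.3 and 55.2 CPM in the wild-type libraries and 134, 184 and 194 CPM in the knockout. Again no knockout library came near the wild-type range. Phlda1 rose by 1.24 (SE 0.20), 2.36-fold, with the smallest adjusted p of the 10 (0.00333, edgeR), and it passed in all 16 alternatives (adjusted p 3.65e-08 to 0.0187). Its deposited values were not whole in 2 libraries, as can happen where reads are split between features.

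Atf3 (ENSMUSG00000026628.13, chr1:191170296-191218039, minus strand) was the member that fell. It encodes a bZIP factor of the CREB and ATF family, induced by stress kinases, p53 and ATF4, that mostly represses. Its level was 29.1, 22.3 and 21.2 CPM in wild type and 6.93, 14.2 and 11.6 CPM in the knockout. All knockout libraries lay below all wild-type libraries. Atf3 fell by 1.15 on the log2 scale (SE 0.27), 2.22-fold lower, with an edgeR adjusted p of 0.0139. The fall held in each of the 6 fits without 1 library. With total counts and no composition factor, where the median of all genes is 0.43, it was -0.73 and did not pass (adjusted p = 0.0587, edgeR), and Fosl1, Jun and Myc then passed as higher, which made 6 members higher and none lower.

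**Figure D2:**
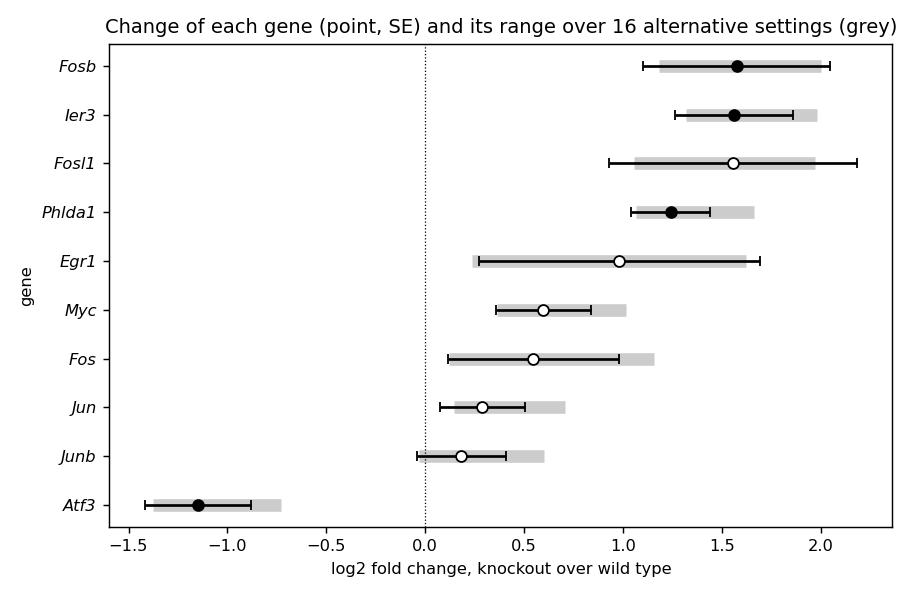
Log2 fold change of knockout over wild type (horizontal axis) for each gene, as a point with its SE, filled where the adjusted p was under 0.05, and as a grey bar for the lowest to highest value in the 16 alternatives. Ier3 and Phlda1 stay above 1 and Atf3 stays below 0 throughout, while the bar of Junb reaches -0.03.

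Per length of annotated exon, which allows levels of different genes to be compared, the order of the mean levels differed between the genotypes. At the upper end neighbours overlapped in both genotypes, so that part of the order is not settled. Lower down, Atf3 ranked 6 in wild type and 8 in the knockout by its mean, and Egr1 8 and 6. In wild type, Junb was at 53.5 ± 10.6 CPM per kilobase (SD, n = 3), Fos at 43.5 ± 16.8 and Phlda1 at 32.7 ± 6.85, each within the spread of its neighbour. Jun followed at 22.1 ± 7.01 and Ier3 at 12.9 ± 4.65, with Atf3 close by at 11.2 ± 1.97. Myc at 6.74 ± 2.26 and Egr1 at 6.27 ± 2.93 could not be set in order. In the knockout Phlda1 stood first at 77.3 ± 14.4 CPM per kilobase, with Fos at 63.6 ± 30.6 within its spread and Junb at 60.7 ± 16.4 just below it. Ier3 was then at 38.1 ± 10.6 and Jun at 27 ± 2.96. Egr1, at 12.4 ± 9.23, and Myc, at 10.2 ± 1.13, again overlapped, and Atf3, at 5.07 ± 1.71, overlapped with Fosl1 at 4.74 ± 0.302. Fosb had the lowest level of the 10 in both genotypes, 0.365 ± 0.185 and 1.09 ± 0.465 CPM per kilobase.

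By the spread within genotypes, pooled over both, the 10 genes varied more than most genes. The SD of log2 CPM pooled over the genotypes ran from 0.304 (Phlda1) to 1.09 (Fosl1), against a median of 0.189 over the 10446 genes at or above the level of the lowest member. In the knockout libraries alone the SD was lower than that median for Fosl1 (0.0896), Myc (0.156) and Jun (0.157), and that of Fosl1 in wild type was 1.54. By the pooled SD, Phlda1 was more variable than 79.2% of those genes, Egr1 than 96.2% and Fosl1 than 96.6%. This spread was shared. In wild type 1, 10 of 10 members were above their wild-type mean, with a median deviation of 0.48 on the log2 scale, and in wild type 3 only 2 were, with a median of -0.38. In knockout 2, 9 of 10 were above the knockout mean (median 0.41), and in knockout 1 only 1 was (median -0.23), Myc. The median deviation of all genes in each library was at most 0.0074 in size, which the scaling of the libraries holds near 0, so the deviations of the members are relative to the other genes of the library.

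**Figure D3:**
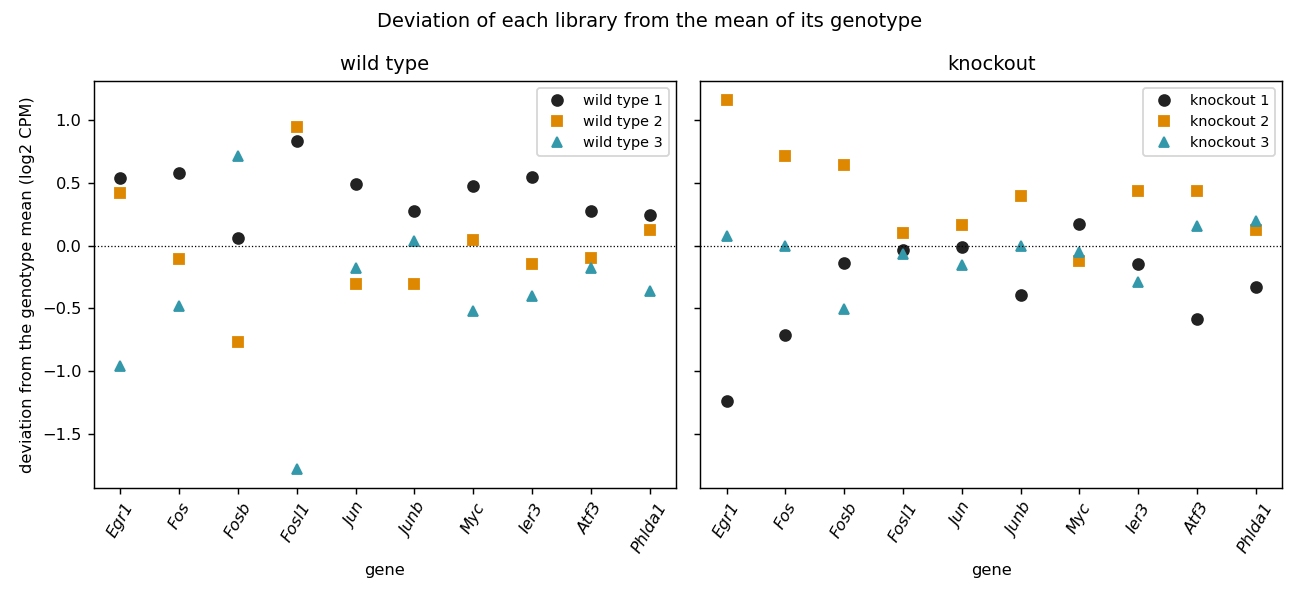
Deviation of each library from the mean of its genotype, in log2 CPM (vertical axis), for each of the 10 genes (horizontal axis), wild type on the left and knockout on the right. The points of wild type 1 lie above 0 for all 10 genes and those of knockout 2 for 9, and the widest scatter is that of Fosl1 in wild type and Egr1 in the knockout.

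Fos and Egr1 had the most similar profiles of any pair of members. Over the 6 libraries, which share genotype and scaling, the correlation of their log2 CPM was 0.95, and that of their deviations from the genotype means was 0.93. The most similar member was Fos for Junb (0.85), Fosl1 for Myc (0.92), Myc for Fosl1, Ier3 for Phlda1 (0.93), for Fosb (0.81) and for Jun (0.79), and Phlda1 for Ier3. Atf3 had no close match, the highest value being 0.17 with Junb. Yet within genotypes Atf3 followed Fos, with a correlation of deviations of 0.95, and Egr1 (0.89). Of the 45 pairs of members, 39 had a positive correlation of deviations, and the 6 negative ones included 4 with Fosb. These are descriptions over 6 libraries.

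Atf3 can also be set against Fos as a ratio of counts within a library, which no scaling factor changes. Atf3 had 19.9, 24.6 and 30.3 counts per 100 counts of Fos in wild type 1, 2 and 3, and 8.22, 6.25 and 8.47 in knockout 1, 2 and 3. The groups did not overlap, and the highest knockout value was below every wild-type value. Ier3 went the other way, with 14, 13.9 and 15.1 counts per 100 of Fos in wild type and 45.2, 25.1 and 25 in the knockout. Egr1 per 100 counts of Fos overlapped between the genotypes, at 18.6 to 37.5 in wild type against 22.4 to 44.3 in the knockout. So did Phlda1, at 57.4 to 85.1 against 81 to 159, and Fosb, at 1.3 to 4.96 against 3.27 to 6.91. Per 100 counts of Junb, Ier3 did not overlap between the genotypes and Jun did. These ratios were chosen after the values were seen and were not tested.

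**Figure D4:**
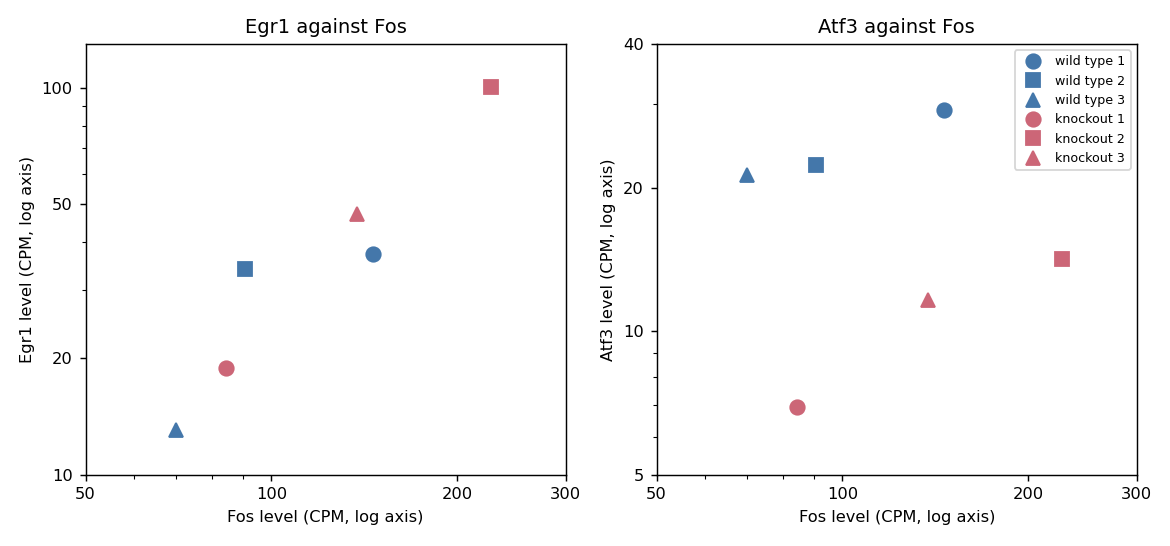
Levels of Egr1 (left) and Atf3 (right) against Fos in the 6 libraries, in CPM on log axes, blue for wild type and red for knockout. Egr1 rises with Fos across both genotypes, while for Atf3 the knockout libraries form a separate row at 6.93 to 14.2 CPM below the wild-type row at 21.2 to 29.1 CPM.

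Outside the members, the genes with the most similar log2 CPM profile to Fos were Map2k3, a kinase that activates p38 (correlation 0.97), the mitotic kinase gene Aurka (0.97) and Zfp36, itself an immediate early gene whose protein degrades short-lived mRNAs (0.97). Zfp36 was at 52.2, 31.8 and 31.3 CPM in the wild-type libraries and 31.8, 64.9 and 41.4 CPM in the knockout, with the highest value in knockout 2 as for Fos. For Phlda1 they were Scarb1, a lipoprotein receptor gene (0.999), Nans, which makes sialic acid (0.99), and Fen1, a replication nuclease gene (0.99). Each of these is a correlation over 6 libraries picked from all genes of at least 5 CPM.

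In a wider list of 45 immediate early genes, 41 were tested, and 14 rose, 3 fell and 24 did not pass, with a median of 0.59. Some of the risers were near 0 in every wild-type library, so only a rise could be called for them. Sgk1, a growth-factor-induced kinase gene, rose by 2.35 (SE 0.22), from 12 ± 2.64 to 61.4 ± 13.3 CPM (n = 3 each, edgeR adjusted p = 5.68e-04). Per1, of the circadian clock, rose by 2.16 (SE 0.23) and Trib1, a pseudokinase gene, by 1.18 (SE 0.12). The Krüppel-like factor genes Klf6 and Klf4 fell, with log2 changes of -0.52 and -0.89, as did Gadd45a, a DNA damage gene, at -1.09. With total counts 25 of this list were higher and none lower, and with both libraries numbered 1 left out 22 were higher, while only 1 was lower without knockout 1, 2 or 3. The calls of Klf4 and Gadd45a each ended without knockout 1, 2 or 3 (edgeR adjusted p 0.051 to 0.0633 and 0.0784 to 0.0951) and with total counts (0.146 and 0.12), where the call of Klf6 also ended (0.403), and that of Klf4 ended without wild type 2 (0.0716).

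Of 18 tested genes of other AP-1 and related bZIP factors, 5 rose, 2 fell and 11 did not pass (median 0.29, and 0.45 without wild type 2). Batf2 rose by 2.18 (SE 0.34), Crem, of the CREB family, by 1.29 (SE 0.26) and Cebpd by 1.08 (SE 0.15). Atf4, the factor of the amino acid and integrated stress response that can induce Atf3, fell by 1.08 (SE 0.22), from 426, 328 and 248 CPM in wild type to 133, 152 and 188 CPM in the knockout (edgeR adjusted p = 0.00801). Like Atf3, and like 26.6% of all genes tested, it had every knockout library below every wild-type library. Whether the falls of Atf4 and Atf3 are linked was not tested. Fosl2, a Fos family gene, went from 186 ± 22 to 139 ± 8.69 CPM (n = 3 each), a log2 change of -0.42 (SE 0.12), the call ending without wild type 3 or any 1 knockout library (edgeR adjusted p 0.0557 to 0.0753) and with total counts (0.979). With total counts 11 of the list were higher and 1 lower, and 3 were higher without any 1 library but wild type 1, when 6 were. Without wild type 3 or any 1 knockout library 1 was lower, and 3 were lower without wild type 1.

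Among 12 stress genes that ATF4 drives or that act beside Atf3, 2 rose and 4 fell (median -0.51, and -0.30 without wild type 1). Asns, asparagine synthetase, fell by 1.79 on the log2 scale (SE 0.32), Phgdh, of serine synthesis, by 1.60 and the lipoprotein receptor gene Vldlr by 0.77, while Sesn2 and Ddit4, inhibitors of mTORC1 signalling, rose by 1.37 and 1.51. In wild type 1 the summed level of the list, 857 CPM, was above the 439 and 497 CPM of the other wild-type libraries, and the knockout libraries lay between 321 and 378 CPM. Those lower numbered 2 without wild type 2 or knockout 2 and 6 without wild type 3, 5 were higher with total counts, and neither riser passed without wild type 2 or 3. Vldlr did not pass with total counts (edgeR adjusted p = 0.123), and the call of Phgdh ended without wild type 2 (0.0552) or knockout 2 (0.0525), while Ddit4 also ended without knockout 1 (0.0549).

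Transcripts of the kinases and factors that act upstream moved both ways, with 6 of 22 higher and 4 lower (median 0.08, and -0.02 to 0.16 without 1 library, lowest without knockout 1 and highest without knockout 3). Elk3, an ETS partner of SRF, rose by 1.79 (SE 0.25), Rps6ka1, the RSK1 kinase gene, by 1.07 (SE 0.15) and Mapk7, ERK5, by 1.16 (SE 0.32). Braf and Mapk8, the JNK1 gene, each fell by 0.50 and Elk4 by 0.33 on the log2 scale. Without wild type 2 or 3 or knockout 1 or 2 only 2 were higher, and without wild type 2 or 3 or knockout 2 or 3 none was lower. With total counts 12 were higher and none lower, and Elk4 was at 0.08 (edgeR adjusted p = 0.517). The call of Mapk7 ended without wild type 2 or 3 or knockout 1 or 2 (0.058 to 0.0726).

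Of 20 genes known as AP-1 targets, 14 rose, 1 fell and 5 did not pass, with a median of 2.45. Several of the risers, Mmp10 among them, were near 0 in every wild-type library. They had enough counts to be tested only through the knockout libraries, so only a rise could be called for them. The count and the median are to be read with that limit. Mmp10, a matrix protease gene, was at 0.109, 0.225 and 0 CPM in the wild-type libraries and 138, 152 and 92.2 CPM in the knockout, and Ivl, involucrin of squamous epithelium, rose by 7.32 (SE 0.40). Plaur, the urokinase receptor gene, rose by 1.95 (SE 0.20), from 24.3 ± 5.65 to 94 ± 14.7 CPM. Spp1, osteopontin, fell by 3.08 on the log2 scale (SE 0.84), a call that ended without any 1 library but knockout 1 (edgeR adjusted p 0.07 to 0.0999). Several of these targets are also induced by other pathways, and the list was drawn up with earlier results of these data known.

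Among Myc partners and antagonists, 5 of 11 rose and 1 fell (median 0.24, but -0.01 without knockout 1 and 0.43 without knockout 3). Max, the obligate partner, rose by 0.77 (SE 0.12) and Mlxip by 0.75 (SE 0.15), while Mycn was at 0.0543, 0.281 and 0.522 CPM in the wild-type libraries and 3.06, 3.41 and 3.4 CPM in the knockout. Mxi1, an antagonist, fell by 0.60 on the log2 scale, which did not hold with total counts (edgeR adjusted p = 0.317) or without knockout 2 or 3 (0.0568 and 0.0524). Without wild type 2, 3 were higher, and none was lower without knockout 2 or 3. Of 20 Myc target genes, 6 rose and 1 fell (median 0.28, and 0.15 without wild type 3). Cad, of pyrimidine synthesis, rose by 1.55 (SE 0.15), Polr1b, an RNA polymerase I subunit, by 1.15 and Nolc1, of the nucleolus, by 0.97, while Nop58 fell by 0.62 on the log2 scale, a call that ended without wild type 2 or knockout 2 (edgeR adjusted p 0.0657 and 0.0781) and with total counts (0.33). With total counts 12 of the targets were higher and none lower, none was lower without wild type 2 or knockout 2, and 2 were lower without wild type 1.

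**Figure D5:**
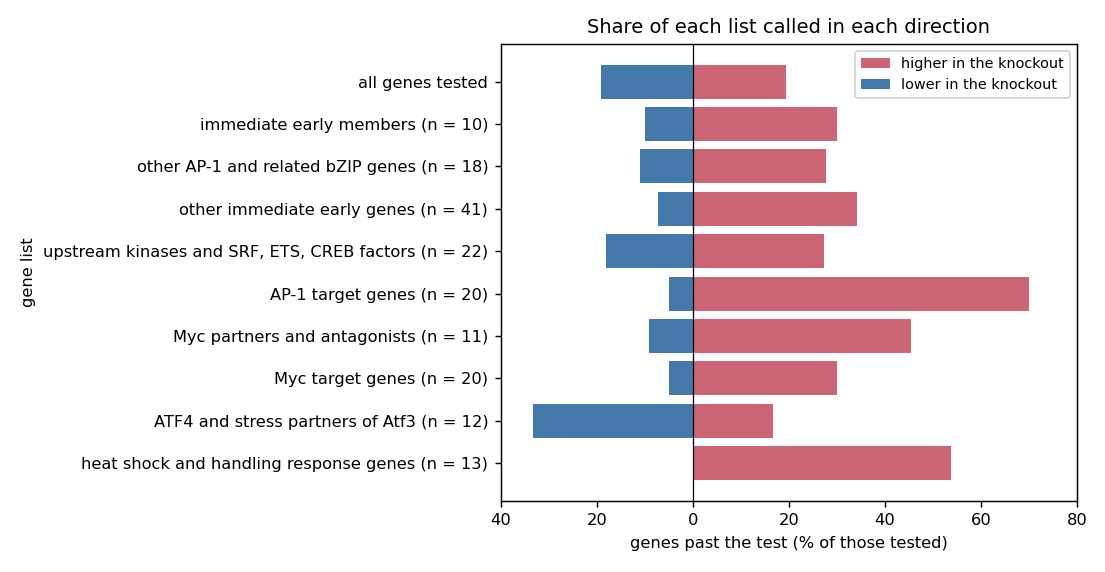
Share of tested genes past the test in each list (horizontal axis, percent; red to the right for higher and blue to the left for lower in the knockout), with all genes tested on top at 19.3% and 19.2%. AP-1 target genes have the longest bar to the right, 14 of 20, and the 10 immediate early members have 3 to the right and 1 to the left.

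Heat shock and other genes known to respond to tissue handling moved with genotype as well. Of 13 tested, 7 rose and none fell (median 0.92), and their summed level was 3850 to 4295 CPM in wild type and 5133 to 8097 CPM in the knockout. Hsph1, a heat shock protein gene, rose by 1.61 (SE 0.28) and Bag3, a chaperone partner, by 0.92. The inducible heat shock gene Hspa1a, named after its values were seen, was at 0.489, 0.9 and 2.44 CPM in the wild-type libraries and 21.4, 43.8 and 322 CPM in the knockout. Without knockout 3, its highest library, the median of the list was 0.52 and 5 of the 13 were higher. Fos, Egr1, Fosb, Junb and Ier3 were highest in knockout 2. For the handling genes the highest knockout library was knockout 1, 2 or 3, according to the gene. Leaving out wild type 1 or 3 left 4 higher and leaving out wild type 2 left 3, while 2 were lower once knockout 1 was left out. The part of handling in the changes of the members was not tested.

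Transcript levels of cell type markers also differed. Immune cell markers rose in 5 of 12 tested, none falling. Their summed levels were 11.5 to 75.9 CPM in wild type and 551, 155 and 239 CPM in knockout 1, 2 and 3. Nkg7, too low to be tested, was at 0 in every wild-type library and at 0.0425, 0 and 0.0872 CPM in the knockout libraries. Of 14 stromal and muscle markers 1 rose, Pecam1 of endothelium, and their sum was 206 to 2950 CPM in wild type and 461 to 1197 CPM in the knockout. The sum was lowest in wild type 1, where all 10 members were above their genotype mean. Among the knockout libraries it was lowest in knockout 1, where only 1 of the 10 was. Of 4 tested squamous markers 3 rose, from sums of 4.87 to 10.5 CPM to 18.3 to 88.8 CPM. Some of the immune and squamous risers were near 0 in every wild-type library, so only a rise could be called for them. Gastric body markers fell in 5 of 6, and antral epithelium markers rose in 4 and fell in 6 of 12. Of 6 transcripts taken as signs of RNA quality, the 4 mitochondrial ones fell and the 2 housekeeping ones did not pass (log2 changes of -0.05 and 0.14, edgeR adjusted p 0.782 and 0.565), and with total counts 2 of the 6 were higher and 2 lower. Without single libraries those higher or lower numbered 2 to 5 (immune), 1 to 3 (stromal, higher), 2 to 3 (squamous), 2 to 6 (gastric body), 4 to 6 (antral, lower) and 2 to 4 (RNA quality). How far these shifts bear on the immediate early genes was not tested.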

How the data were processed

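Antral mucosa of 3 wild-type and 3 Muc6 knockout libraries was sequenced with a stranded polyadenylated-RNA kit, per the labels' protocols. The authors deposited estimated counts per gene, on build mm10 per the submitters' processing notes, with no normalization. For the aligner, counter, annotation and use of strand, the sources used here give nothing. The unit was taken from the values, of which 28.8% to 34.3% above 0 in a library were not whole.

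Values were rounded, genes kept with filterByExpr, libraries scaled with TMM, and knockout compared with wild type by robust quasi-likelihood fits in edgeR 4.0.16 (R 4.3.3), with Benjamini-Hochberg adjustment over all 14017 genes and a threshold of 0.05. The SE is that of the fold change under this F test. The code was tested on simulated data. Of 34866 rows, 34582 were matched to a symbol in GENCODE M21, on the same build. Correlations used log2 CPM with a prior count of 2. No 2 replicates were alike within counting error (chi-square of 16 to 79.6 for each degree of freedom).

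Members and lists were chosen with earlier results of these data known. Named genes are all members, and per list up to 3 called genes in each direction with the smallest adjusted p. Cell marker and RNA quality lists are given as counts and sums. Alternatives were other scalings and filters, DESeq2 1.42.0, limma-voom (limma 3.58.1), the replicate number as a block, stricter thresholds, and libraries left out. Malat1 and Neat1 were not analysed here. A few listed genes are not reported here by name.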

Additional observations from a re-analysis of the deposited data

How the results depend on the processing

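With total counts and no composition factor 5730 genes were higher and 1091 lower (84% of calls higher, against 50.1%), and with library sizes taken without the 20 most abundant genes 4083 and 1708. An adjusted p under 0.01 left 1257 higher and 1408 lower, and a log2 change of at least 1 left 1284 and 942. Members higher numbered 6 with total counts and 5 with both libraries numbered 1 left out, and members lower numbered 0 with total counts and 0 at an adjusted p of 0.01. Leaving out 1 library gave 1600 to 3045 genes higher (fewest without wild type 2) and 1721 to 2964 lower (fewest without knockout 2, and 1742 without wild type 2), 2 to 4 members higher, 1 lower, and a change of Junb of -0.032 to 0.359. With library sizes taken without the 20 most abundant genes the calls of Fosl2, Klf4, Gadd45a, Braf, Elk4, Mapk8, Mxi1 and Nop58 ended, and the calls of Gadd45a, Elk4, Spp1 and Ddit4 ended when low counts were not filtered.

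Same-numbered libraries had correlations of their deviations from the genotype means of 0.25, 0.091 and 0.19, and wild type 3 was closer to knockout 2 (0.27) than to knockout 3, so the numbers were not taken as pairs. With the replicate number as a block 5069 genes were called against 5386, 3 members were higher and 1 lower, the call of Fosb ended (adjusted p = 0.075, edgeR) and that of Myc was gained (0.0399). Fosb rests on few counts, and the overlap of Fos, Egr1, Jun and Junb with 3 libraries a group limits what can be called.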
